A study of Mus musculus with 19 samples.

Results

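The 8 genes described here encode secreted or membrane-bound factors: the chemokines Ccl25, Ccl21a, Ccl19, Cxcl12 and Cxcl14 and the growth factors Kitl, Il7 and Flt3l. Most of them are known to draw blood-borne progenitors into the thymus or keep them alive there, and for Cxcl14 this role is not established. The 8 genes were taken by name from a table of 54179 genes, of which 21964 are protein-coding, in single EPCAM+PLET1+ epithelial cells of the mouse, from the third pharyngeal pouch at E10.5 and the thymic primordium at E12.5. The embryos were wild-type and, per the methods, of the C57BL/6 strain. Cells had been sorted singly into the wells of 96-well plates, and the table of raw read counts holds 4 plates of E10.5 (a to d) and 4 of E12.5 (a, c, d, e). After filtering, 711 of 733 wells were kept, 356 at E10.5 and 355 at E12.5. The plate was the replicate (n = 4 per stage), and the number of embryos or litters behind a plate is not given in the sources used here, so p-values measure the spread between plates.

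The thymus holds no long-lived blood-forming stem cells of its own and is colonised by blood progenitors that arrive from the fetal liver and later the bone marrow. CCL25, the ligand of CCR9, CCL21 and CCL19, which share the receptor CCR7, and CXCL12, the ligand of CXCR4, attract these cells, whereas KIT ligand and interleukin-7 sustain their survival and division once inside. Ccl25 is a known target of FOXN1, the transcription factor that directs thymic epithelial differentiation. The neighbouring parathyroid primordium arises from the same pouch, depends on the transcription factor GCM2 and is known to produce CCL21 in the embryo.

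The E12.5 cells were divided by Chga, which encodes the secretory granule protein chromogranin A and is abundant in the parathyroid. Of the 355 cells, 42 had at least 2000 CPM of Chga (CPM, reads scaled to 1000000 protein-coding reads of the cell or class), with 12, 15, 9 and 6 on plates a, c, d and e, and are called Chga-high. The lowest of these had 4952 CPM and the highest of the other 313 cells had 687 CPM, with no cell between. The label of parathyroid was checked on other genes: molecules of Pth, the parathyroid hormone gene, were found in 41 of 42 Chga-high and 5 of 313 other cells, and molecules of Gcm2 in 32 of 42 and 2 of 313. Among the other cells, molecules of Foxn1 were found in 183 of 313, whereas they were found in 0 of 42 Chga-high cells, which allows a share of up to 7.14%. Molecules of the epithelial adhesion gene Epcam were found in 224 of 313 other cells and in 40 of 42 Chga-high cells. Epcam thus marks both classes and does not set the other cells apart. At E10.5 no cell reached 2000 CPM of Chga, and 58 of 356 cells with at least 3 of 6 neuronal genes (Tubb3, Stmn2, Elavl3, Elavl4, Nefl, Nefm) at 100 CPM or more were set apart as neuronal, leaving 298. Of these E10.5 cells 46 had exactly 2 of the 6 genes and 32 exactly 3, so this limit, unlike that of Chga, ran through a continuous range.

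Reads on all genes lay between 14981265 and 20106286 per plate, and median molecules per cell in 1 sequencing run between 1305 (plate a at E10.5, the shallowest) and 5175. The same 73 well names were kept on all 8 plates, since each plate carries the same set of well barcodes, and plates were separate libraries. Reads and molecules did not give the same picture of a low level: Pth reads were found in 45.8% to 89.9% of the other E12.5 cells per plate, at 11.3 CPM ± 4.71 (SD, n = 4) against 11531 CPM ± 3019 in Chga-high cells, whereas Pth molecules were found in 0% to 3.61% of them. Shares of cells are therefore given by molecules of 1 run unless stated, and a share by reads in cells that should lack a gene is read as background. Intervals are exact binomial at 95%, and they and the limits for a count of 0 (3 counts) cover counting error only.

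The bases before the annotated starts of the 4 genes on which the comparisons turn are shown because Ccl25, Cxcl12 and Kitl rose between the stages and were lower in Chga-high cells, whereas Ccl21a was higher there. The reference table of RefSeq promoters on GRCm38.p6 was matched for 7 of the 8 genes, Il7 not being among them, and gave 2 starts for Ccl25. For Cxcl12, Ccl21a and the second start of Ccl25 the run holds the 250 bases before the start, and for Kitl and the first start of Ccl25 the motif with 12 bases on each side, 5′ to 3′ on the strand of the gene. Capitals mark GACGC, the core letters bound by FOXN1, on either strand.
Ccl25, site before the first start (chr8:4325142-4325170, + strand): ctttgaagaagcGACGCtcattggttggc
Ccl25, second start (chr8:4349338-4349587, + strand): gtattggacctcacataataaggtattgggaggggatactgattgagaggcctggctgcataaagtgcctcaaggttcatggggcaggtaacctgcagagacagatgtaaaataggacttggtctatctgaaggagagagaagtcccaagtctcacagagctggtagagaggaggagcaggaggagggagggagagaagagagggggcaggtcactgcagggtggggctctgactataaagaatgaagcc
Cxcl12 (chr6:117168285-117168534, + strand): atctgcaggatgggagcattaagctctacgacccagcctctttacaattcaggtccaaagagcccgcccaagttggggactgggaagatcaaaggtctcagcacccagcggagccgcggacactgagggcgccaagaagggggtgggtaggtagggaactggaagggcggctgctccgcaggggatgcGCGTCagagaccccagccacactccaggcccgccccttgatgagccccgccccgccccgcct
Kitl, site (chr10:100015626-100015654, + strand): acccagacagggGACGCaccaggctcgat
Ccl21a (chr4:42773992-42774241, - strand): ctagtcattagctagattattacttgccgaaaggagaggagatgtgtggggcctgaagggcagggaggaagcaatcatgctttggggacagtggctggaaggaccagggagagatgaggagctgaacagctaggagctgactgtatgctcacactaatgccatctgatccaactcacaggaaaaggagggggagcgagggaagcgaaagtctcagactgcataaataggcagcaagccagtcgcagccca
The letters GACGC were found once each before the first start of Ccl25 (positions -56 to -52 from the start), before Cxcl12 (-62 to -58, on the opposite strand) and before Kitl (-183 to -179), and were not found before the second start of Ccl25 or before Ccl21a, Ccl19, Cxcl14 and Flt3l. Of 32851 promoters in the reference table, 22.6% held them in a window of the same length. The GCM letters ATNCGGGT, held by 0.831% of the promoters and searched on both strands, were found before none of the 7 genes. These matches are descriptions of the letters in the window. G and C made up 74.8%, 64.4% and 69.2% of the windows with GACGC (Ccl25 first start, Cxcl12, Kitl). They made up 51.6% to 59.6% of the windows without it, and the share over all promoters was not matched for this. All 250 bases before the first start of Ccl25 lie in the first exon of Elavl1, annotated on the opposite strand. Of the 250 before the RefSeq start of Kitl, 191 lie in an exon of the GENCODE transcript Kitl-202, the GACGC site among them. Before Ccl19 up to 212 of the 250 bases lie in an exon of Ccl19 itself. The counts do not tell which start of Ccl25 was used, and the gene spans chromosome 8, 4325210 to 4360020, on the + strand of GRCm38.

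Of the 8 genes, 5 rose from E10.5 to E12.5 when all cells of a plate were summed: Ccl25, Il7, Kitl, Ccl21a and Cxcl12. Cxcl14 did not pass the test, and Ccl19 and Flt3l were too low to be tested. Across all 11499 genes tested, 6.24% passed, 3.8% higher and 2.44% lower at E12.5 (edgeR quasi-likelihood test, Benjamini-Hochberg adjusted p under 0.05). No overlap between the plates of both stages was seen for 5 of the 6 genes tested here and for 14.4% of all genes. Without the Chga-high and neuronal cells, 4 of the 8 rose, all but Ccl21a among the former 5, against 5.31% of 11166 genes passing, 3.38% higher and 1.93% lower, and the plates did not overlap for 4 of the 6 tested against 13.9% of all genes. The median log2 fold change of the 6 genes was 6.30 in the first comparison and 4.50 in the second, beside 0.0013 and -0.0071 over all genes. Il7 and Kitl, and Ccl21a over all cells, reached the filter on low counts only through the E12.5 plates. These counts and medians thus describe the genes tested and not all 8, and the tests of these genes below are descriptions.

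**Figure D1:**
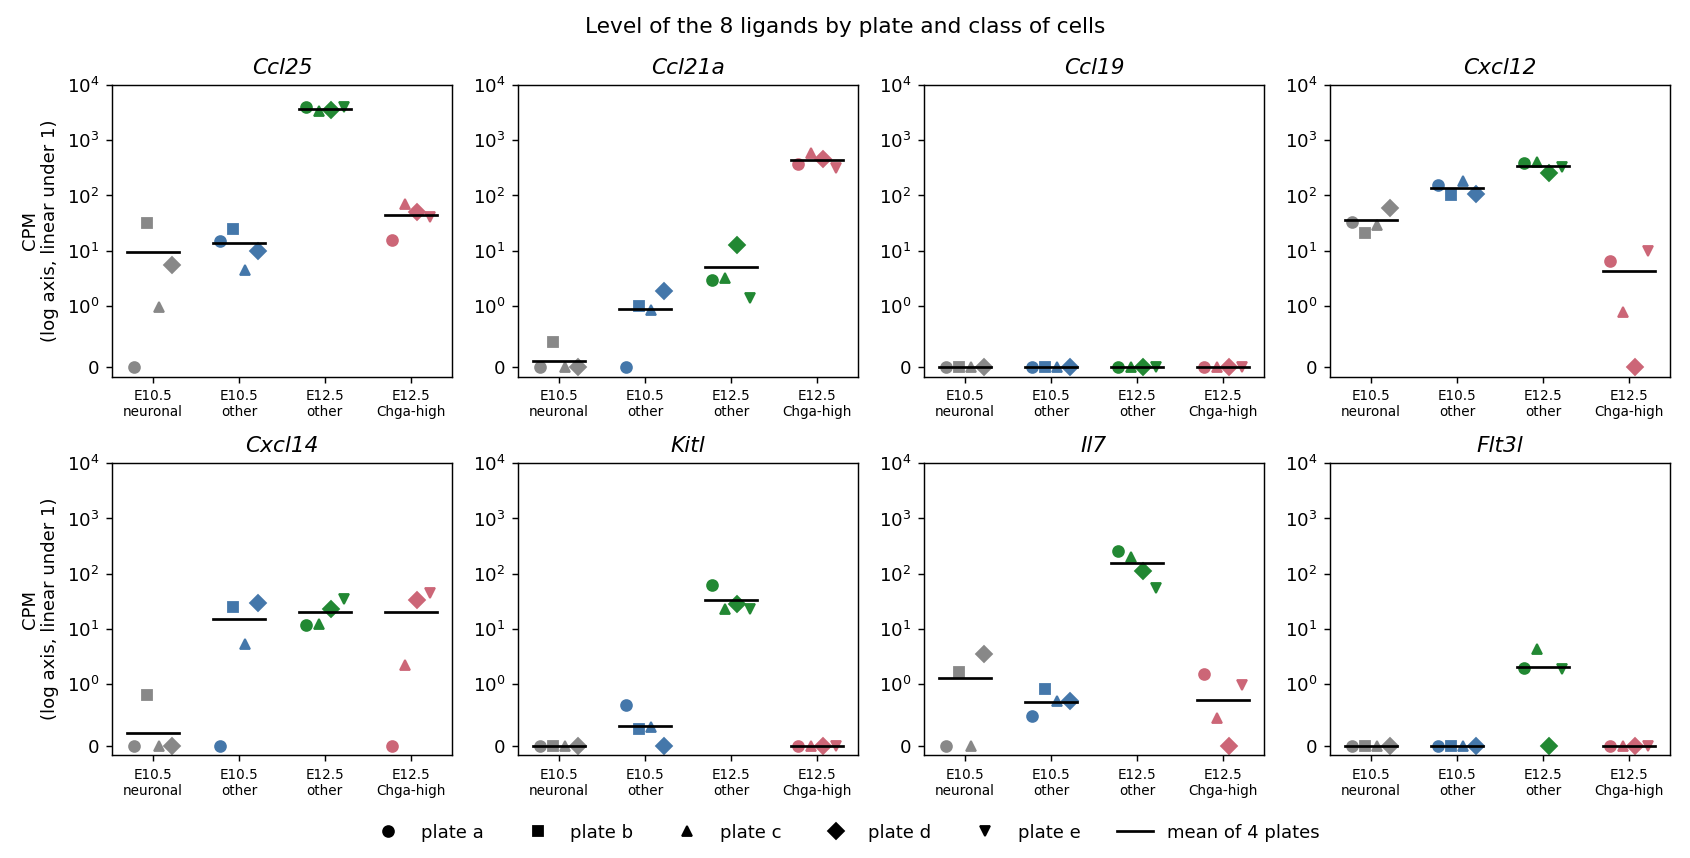
Level in CPM of each of the 8 genes (y axis, logarithmic above 1 and linear below) in E10.5 neuronal, other E10.5, other E12.5 and Chga-high E12.5 cells, with 1 point per plate and a bar at the mean of 4 plates. Ccl25, Il7 and Kitl stand high in the other E12.5 cells, Ccl21a in the Chga-high cells, and Ccl19 lies at 0 throughout.

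Ccl25 made the step from near background to a strong signal. In other E12.5 cells it reached 3954, 3346, 3498 and 3918 CPM on plates a, c, d and e. In other E10.5 cells it reached 15.3, 24.8, 4.56 and 9.80 CPM on plates a to d. All 4 plates of the later stage lay far above all 4 of the earlier, with a log2 fold change of 8.07 (SE 0.53, edgeR adjusted p = 1.6e-05). Molecules of Ccl25 were found in 246 of 313 later cells (78.6%, interval 73.6% to 83.0%) and in 12 of 298 earlier cells (4.03%, 2.10% to 6.93%). In none of the 12 E10.5 cells was there more than 1 molecule, and a single cell held 26.8% of the reads of the class.

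Interleukin-7, needed for the survival of early thymocytes, was near 0 at E10.5. In other E12.5 cells it stood at 255, 200, 113 and 55.7 CPM on plates a, c, d and e, and in other E10.5 cells at 0.48, 0.92, 0.73 and 0.73 CPM on plates a to d. The lowest later plate thus lay above the highest earlier one, although the later plates themselves spread widely (log2 fold change 7.65, SE 0.55, edgeR adjusted p = 2.2e-05). Il7 entered the test only through the E12.5 cells, where it was high. With molecules in place of reads the log2 fold change was smaller, at 5.17 (edgeR adjusted p = 1.8e-06). For this fit the molecules of 2 runs of a library were added, so a molecule seen in both runs counts in each. In other cells of E10.5 plate b 10 Il7 reads gave 9 such molecules. In those of E12.5 plate a 3683 reads gave 265. Reads and molecules were thus not in the same proportion at both stages, and the part of this in the smaller value was not tested. Molecules were found in 162 of 313 later cells, from 24.1% on plate e to 74.7% on plate a, against 6 of 298 earlier cells. Il7 lies on chromosome 3 at 7569994 to 7613760 and overlaps the antisense gene Gm16685 at its 5′ end, and whether the counting used strand is not given in the sources used here.

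Kitl, the ligand of the KIT receptor on thymus-seeding progenitors, stood at 61.5, 22.9, 27.9 and 22.9 CPM in other E12.5 cells and at 0.67, 0.28, 0.31 and 0 CPM in other E10.5 cells. The stages did not overlap (log2 fold change 6.74, SE 0.90, edgeR adjusted p = 0.0013), and Kitl entered the test only through the E12.5 cells, where it was high. The log2 fold change was 4.18 with molecules of 2 runs in place of reads (edgeR adjusted p = 0.00012) and 7.32 without E10.5 plate a. Kitl molecules were found in 57 of 313 later cells (18.2%, 14.1% to 22.9%) and 3 of 298 earlier cells. The share was 22.8% on plate a and 15.7% to 17.3% on the other 3 plates, so plate a was highest in level and in share.

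Cxcl12, unlike the 3 preceding genes, was above 100 CPM in the other E10.5 cells of every plate. Other E10.5 cells held 153, 103, 180 and 108 CPM on plates a to d and other E12.5 cells 379, 408, 256 and 327 CPM on plates a, c, d and e. The plates did not overlap, and the log2 fold change was 1.31 (SE 0.24, edgeR adjusted p = 0.0075). Molecules were found in 86 of 298 earlier cells (28.9%, 23.8% to 34.4%) and in 174 of 313 later cells (55.6%, 49.9% to 61.2%). Per plate the share ran from 13.3% to 40.8% at E10.5, with the shallow plate a lowest, and from 49.3% to 62.0% at E12.5. In cells thinned to 1000 molecules the shares were lower, from 7.04% to 13.5% at E10.5 and from 15.7% to 32.9% at E12.5, with 53 of the 75 cells of E10.5 plate a deep enough to be kept.

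Ccl21a, a ligand of CCR7, rose when all cells were summed, from 0.82 CPM ± 0.66 (SD, n = 4) to 53.6 CPM ± 29.0, with a log2 fold change of 5.80 (SE 0.93, edgeR adjusted p = 0.0033). Over all cells it entered the test only through the E12.5 plates, where it was high. Without the Chga-high and neuronal cells it stood at 2.91, 3.15, 12.53 and 1.38 CPM on the E12.5 plates and at 0, 1.02, 0.93 and 1.86 CPM on the E10.5 plates. These plates overlapped, and the log2 fold change of 2.26 (SE 1.37) did not pass the test (edgeR adjusted p = 0.47). Without E12.5 plate d the log2 fold change was 1.19 (edgeR adjusted p = 0.80). Over the 19 alternatives it ran from 1.19 to 3.23, and none passed (lowest adjusted p by edgeR or DESeq2, 0.079).

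Cxcl14 was sparse at both stages and did not pass the test, with log2 fold changes of 0.53 (SE 1.16, edgeR adjusted p = 0.88) over all cells and 0.35 (SE 1.15, edgeR adjusted p = 0.93) without the Chga-high and neuronal cells. Other E12.5 cells held 11.9, 12.3, 23.1 and 34.3 CPM and other E10.5 cells 0, 25.3, 5.29 and 30.1 CPM, and the ranges overlapped. Its molecules were found in 18 of 313 later and 10 of 298 earlier cells. At E10.5 a single cell carried 32.3% of the reads of the class.

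Ccl19 was not detected and Flt3l was read in few cells. No read of Ccl19 was found in any of the 711 cells, which allows a share of up to 0.422% of cells with a read at this depth. Flt3l, a growth factor of early lymphoid and dendritic progenitors, was read in 4 of 355 cells at E12.5, all outside the Chga-high class, and in 0 of 356 cells at E10.5, which allows up to 0.843%. Its levels were 2.01, 4.44, 0 and 1.86 CPM in the other E12.5 cells. Flt3l (chromosome 7, 45129788 to 45136432) shares its strand and most of its span with the annotated gene Gm45713. Under union counting reads common to both genes would go to neither, but Gm45713 has no row among the genes counted. Whether Flt3l reads were lost in this way is not known, so its values are uncertain.

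**Figure D2:**
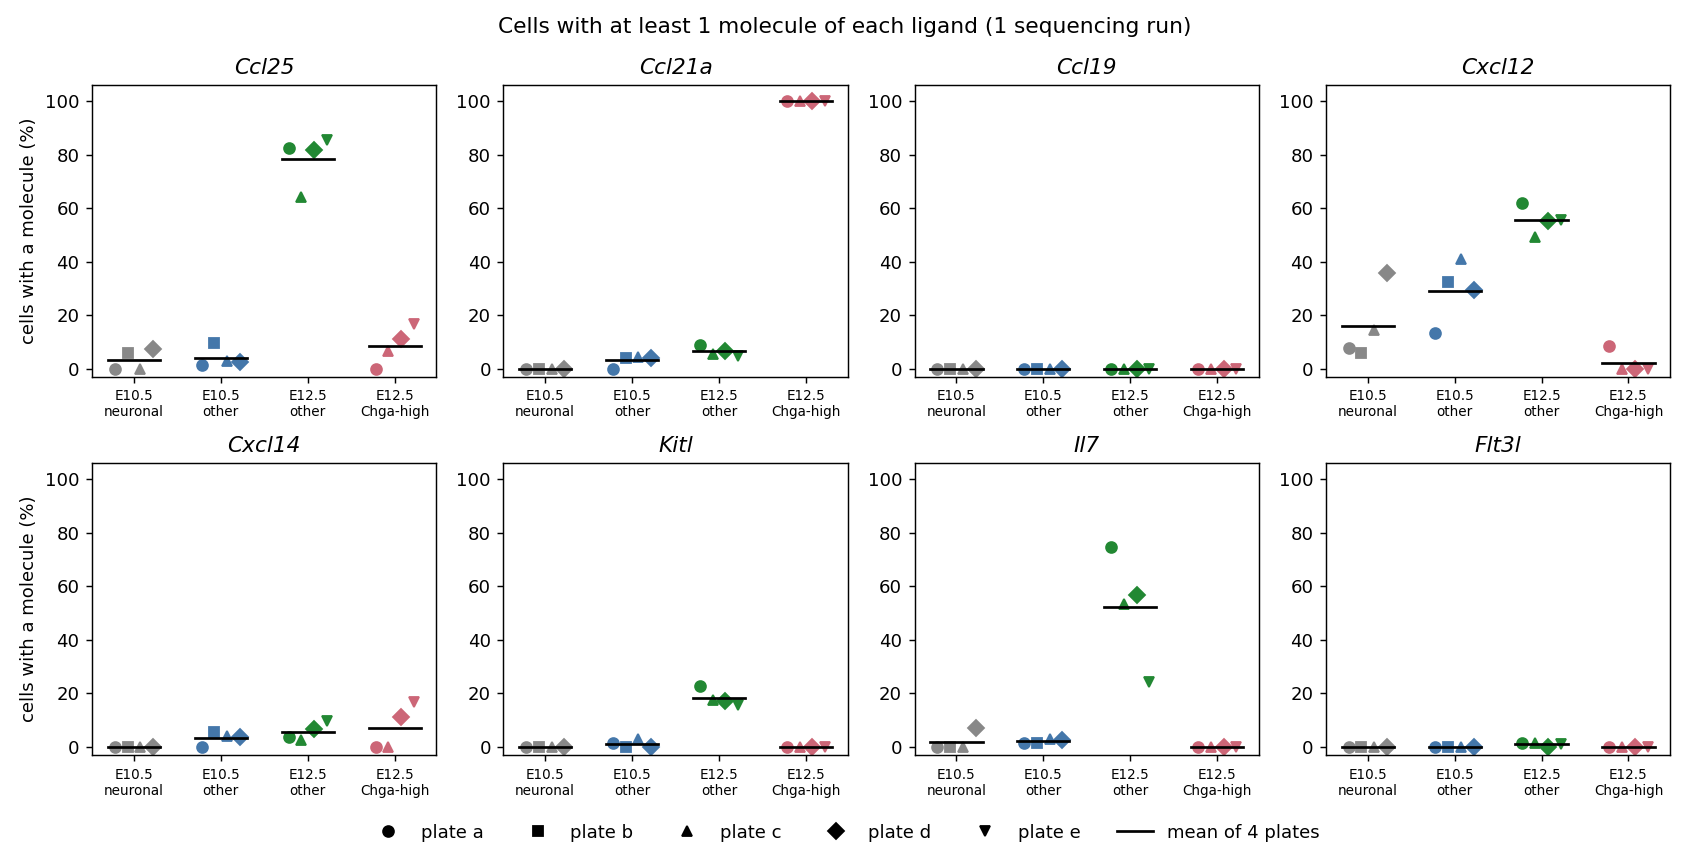
Share of cells (y axis, percent) with at least 1 molecule of each gene in 1 sequencing run, by class of cells, with 1 point per plate and a bar at the mean of 4 plates. Ccl21a molecules were found in every Chga-high cell, and those of Ccl25, Il7, Cxcl12 and Kitl mainly in other E12.5 cells.

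Within E12.5, 5 of the 8 genes differed between Chga-high and other cells: Ccl21a was higher in Chga-high cells, and Ccl25, Cxcl12, Il7 and Kitl were lower. Cxcl14 did not pass the test, and Ccl19 and Flt3l could not be tested. In simulated data, with changes smaller than the differences of the 5 genes called here, 5.82% of the changed genes tested were recovered. A gene that did not pass in this comparison may thus still differ. Among 9839 genes 8.28% passed, 1.81% higher and 6.47% lower, and the plates of both classes did not overlap for 5 of the 6 genes tested here against 17.1% of all genes. The median log2 difference of the 6 genes was -6.51, or -6.38 with Kitl at its bound, beside -0.18 over all genes. Cxcl12, Il7 and Kitl reached the filter on low counts only through the other cells, where they were high, so their tests here are descriptions. The median over all genes was 0.023 with RLE size factors and -1.06 with the plate as a block. Both classes of a plate come from the same library: with the plate as a block 284 genes passed instead of 815 and 4 of the 8 genes instead of 5, and without 1 plate between 104 and 139 genes passed, 3 or 4 of the 8 among them.

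Ccl21a set the Chga-high cells apart. They held 376, 591, 456 and 313 CPM on plates a, c, d and e, against the 1.38 to 12.53 CPM of the other cells, a log2 difference of 6.25 (SE 0.78, edgeR adjusted p = 0.0017), and of 7.27 without plate d. Every one of the 42 cells had a Ccl21a molecule (interval 91.6% to 100%), with a median of 16 and a maximum of 47 molecules per cell. Its level per cell ran from 103 to 1228 CPM with a median of 396 CPM. In the other cells molecules were found in 20 of 313 (6.39%, 3.95% to 9.70%). Thinned to 1000 molecules per cell, the share stayed at 100% on every plate in Chga-high cells. Ccl21a lies on chromosome 4 at 42772860 to 42773993 on the - strand, within the span of 4930578G10Rik on the other strand. Near-identical copies of Ccl21a exist, and the annotated copy Ccl21b had 0 reads and Gm10591 1 read, but how reads common to several copies were counted is not given in the sources used here, so the level may include or miss reads of other copies.

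A single cell held 56.8% of the Ccl21a reads outside the Chga-high class. It came from plate d and had 548 CPM of Ccl21a with 49 molecules, 3.20 CPM of Chga, 19.2 CPM of Ccl25 without a molecule, and 89.7 CPM of Gcm2 with 2 molecules. Its Ccl21a was thus within the range of the Chga-high cells by CPM and above their maximum of 47 by molecules. Its Chga lay below their range. The next cell, on plate a, had 165 CPM of Ccl21a, no Gcm2 read, 476 CPM of Foxn1 and 12184 CPM of Krt5, a keratin of medullary epithelium. Of the 20 other cells with a Ccl21a molecule, 13 had a Foxn1 molecule and 1 a Gcm2 molecule. The Chga-high cell nearest the limit, at 4952 CPM of Chga, had 759 CPM of Ccl21a, whereas the 4 other cells between 500 and 1000 CPM of Chga had 0.

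**Figure D3:**
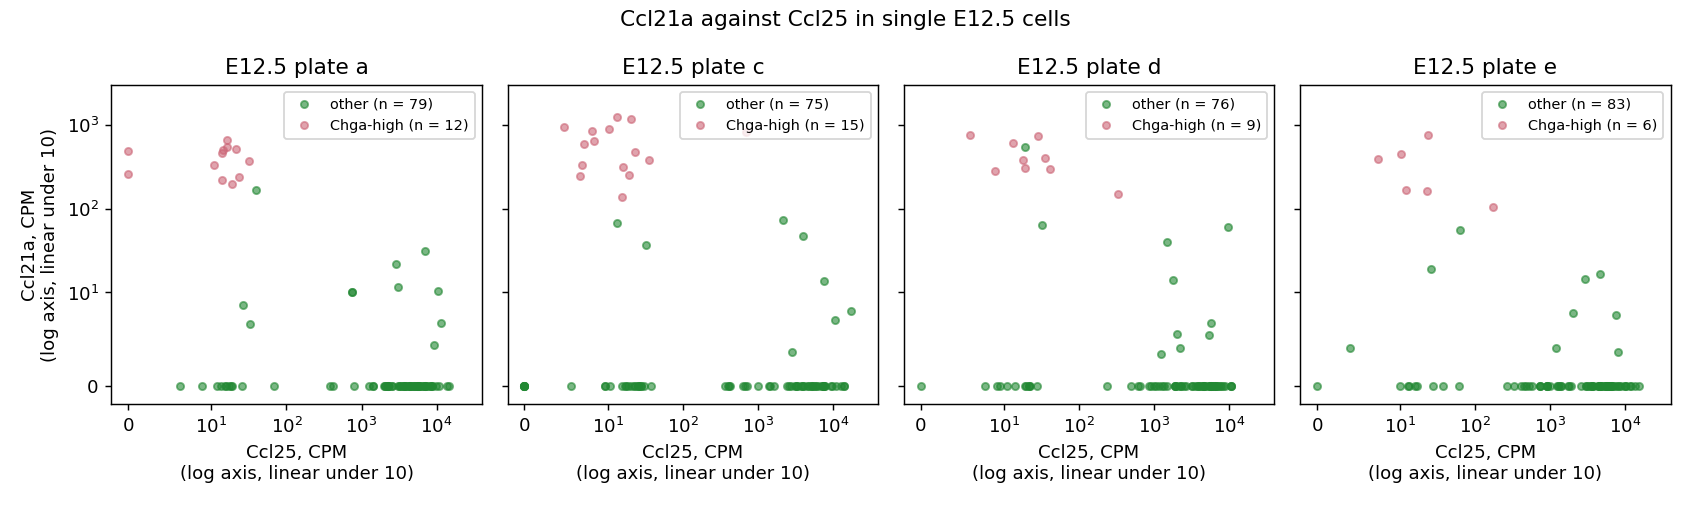
Ccl21a (y axis) against Ccl25 (x axis) in single E12.5 cells, both in CPM on a logarithmic axis that is linear below 10, with 1 panel per plate and 1 point per cell. The Chga-high cells lie at 103 CPM of Ccl21a or more and, apart from 3 cells at 172 to 693 CPM, at low Ccl25, and most other cells lie at 0 Ccl21a, split between low and high Ccl25.

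Ccl25 was low in the Chga-high cells, at 15.6, 69.8, 50.3 and 41.4 CPM on plates a, c, d and e against at least 3346 CPM in other cells of every plate. The log2 difference was -6.53 (SE 0.47, edgeR adjusted p = 3.3e-05). Its reads were found in 95.2% of Chga-high cells but its molecules in 3 of 42 (7.14%, 1.498% to 19.5%), 1 molecule in each. These 3 cells had 172, 327 and 693 CPM, and the last, on plate c, held 40.4% of the Ccl25 reads of the class. Per plate the level in Chga-high cells was 0.39% to 2.09% of that in other cells, with a median of 1.25%. The same measure was 0.28% to 1.69% for Foxn1 (median 0.355%), 0.23% to 1.78% for Prss16 (0.336%) and 0.054% to 0.38% for Psmb11 (0.116%).

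Cxcl12 stood at 6.54, 0.91, 0 and 9.86 CPM in Chga-high cells, against 256 CPM or more in other cells, a log2 difference of -6.48 (SE 1.03, edgeR adjusted p = 0.0068), and a molecule was found in 1 of 42 cells. The call was lost without plate a (edgeR adjusted p = 0.075) or without plate c (0.056), with log2 differences of -6.77 and -6.07. The log2 difference was -5.37 with molecules in place of reads, -7.19 with the plate as a block and -7.23 without plate e, each past the threshold. Il7 stood at 1.51, 0.45, 0 and 0.99 CPM in Chga-high cells, with 0 of 42 cells holding a molecule (up to 7.14%), and a log2 difference of -7.81 (SE 1.02, edgeR adjusted p = 0.0025). With every well included this call was lost (log2 difference -5.02, edgeR adjusted p = 0.051). With molecules in place of reads it was kept (edgeR adjusted p = 0.00038), and since no molecule was found in the class the fitted difference is no bound and is not given.

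No Kitl read was found in the 42 Chga-high cells, and against the floor of 3 reads over the class the level was at least 77.1-fold lower than in other cells, or at least 39.7-fold lower without plate a, which held 887 of the 1947 Kitl reads of the other cells. Kitl entered the test only through the other cells, where it was high (edgeR adjusted p = 0.024). With the plate as a block the adjusted p was 0.11, and without any single plate it lay between 0.081 and 0.089. Cxcl14 stood at 0, 2.27, 34.0 and 45.3 CPM in Chga-high cells and overlapped with the other cells (log2 difference -0.13, SE 1.43, edgeR adjusted p = 0.99), a sign that turned with RLE size factors (0.06) and without plate a (0.05) or plate c (0.01). Its molecules were found in 2 of 42 Chga-high cells.

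At E10.5 none of the 8 genes passed the edgeR test between neuronal and other cells, against 0.759% of 9744 genes, 0.493% higher and 0.267% lower. With the plate as a block 45 genes passed instead of 74. In simulated data 11.9% of the changed genes tested were recovered in this comparison, so a gene that did not pass may still differ. At an unadjusted p under 0.05, 1 of the 2 genes tested (Cxcl12) passed, beside 906 of all 9744, and DESeq2 called it (adjusted p = 0.0078) among 835 of 11182 genes. Cxcl12 stood at 33.3, 20.6, 29.0 and 58.1 CPM in neuronal cells on plates a to d, below the 103 CPM or more of the other cells on every plate (log2 difference -1.80, SE 0.50, edgeR adjusted p = 0.12). No overlap of this kind was seen for 11.2% of all genes. With at least 2 instead of 3 neuronal genes the difference was 0.41, so its sign depended on the limit. Ccl25 reads gave 0, 31.2, 0.98 and 5.47 CPM in neuronal cells (log2 difference -0.31, SE 1.42, edgeR adjusted p = 0.997), with molecules in 2 of 58. Kitl was read in none of these 58 cells, Il7 in 6 with a molecule in 1, and Cxcl14 and Ccl21a in 1 each.

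Among the E12.5 cells without high Chga, the measured Ccl25 CPM per cell had a gap. No cell lay between 100 and 200 CPM, 66 cells lay below and 247 above. This limit was chosen after the values were seen, and both sides are described without a test. Below it none of the 66 cells had a Ccl25 molecule and their median was 17.4 CPM, close to the 15.6 CPM of the Chga-high cells. Above it 246 of 247 had a molecule and the median was 4226 CPM, within a range of 233 to 17658 CPM. The lower cells were 14 of 79, 26 of 75, 14 of 76 and 12 of 83 on plates a, c, d and e, and their median of 2498.5 molecules per cell lay below the 3285 of the higher cells. The gap thus lay almost exactly between cells without and cells with a captured Ccl25 molecule. Whether the lower cells lacked Ccl25 or had it missed was not tested.

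Other members also had unlike values on the 2 sides. Kitl molecules were found in 1 of 66 cells on the lower side and in 56 of 247 on the upper, and the level was 4.45 CPM ± 2.97 (SD, n = 4 plates) against 41.2 CPM ± 22.1. Cxcl12 molecules were found in 16 of 66 (24.2%) and in 158 of 247 (63.97%), with 127 CPM ± 52.6 against 399 CPM ± 90.8. Il7 molecules were found in 24 of 66 (36.4%) and 138 of 247 (55.9%), and the ranges over plates overlapped (16.7% to 57.1% and 25.4% to 80.0%). Cxcl14 shares were 6.06% and 5.67%. Ccl21a was higher on the lower side, with molecules in 8 of 66 cells (12.1%) against 12 of 247 (4.86%) and 21.6 CPM ± 29.9 against 1.48 CPM ± 0.67, the lower side including the single cell of plate d described above.

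Genes outside the list are given for the same division. Psmb11, the cortical proteasome subunit, had molecules in 8 of 66 cells below and 192 of 247 above, and Prss16, a thymus-specific serine protease of the cortex, in 34 and 220. Foxn1 molecules were found in 26 of 66 and 157 of 247. Cldn3 and Cldn4, claudins used as marks of medullary progenitors and looked at after these values were seen, had molecules in 10 and 15 of 66 cells below and in 6 and 26 of 247 above. For Krt5, also a medullary gene, the order turned with the measure: molecules were found in 20 of 66 cells (30.3%) below and 129 of 247 (52.2%) above, whereas the level was 1079 CPM ± 1094 (SD, n = 4 plates) below and 489 CPM ± 232 above, with overlapping plates. Plet1 molecules were found in 7.58% and 8.50%, at 113 CPM ± 47.5 and 52.9 CPM ± 20.5, again with overlapping plates. On plate e 58.3% of the 12 lower cells had a Cldn4 molecule, against 11.5% of the 26 on plate c.

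When the other E12.5 cells were divided by Foxn1 instead, Ccl25 molecules were found in 157 of 183 cells with a Foxn1 molecule (85.8%) and in 89 of 130 without (68.5%), and the share was higher with Foxn1 on each of the 4 plates. The same order held for Il7 on each plate, with 107 of 183 (58.5%) against 55 of 130 (42.3%). For Cxcl12 it was 59.6% against 50.0%, and for Kitl 19.7% against 16.2%, where plate d had the reverse order (16.7% and 17.6%). The order over all plates was the same for Ccl21a (7.10% against 5.38%) and Cxcl14 (7.10% against 3.85%). It was reversed on plate e for Ccl21a and on plate c for Cxcl14. Cells with a Foxn1 molecule had a median of 3307 molecules and those without 2727, and the part of depth in these shares was not tested.

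Most other E12.5 cells held more than 1 of Ccl25, Cxcl12, Il7 and Kitl. These 4 are the members that rose between the stages and were lower in Chga-high cells. Lower numbers in the E10.5 and Chga-high classes thus follow from the choice of genes, and Ccl21a was not counted. By molecules, 24 of 313 cells had all 4, 95 had 3, 97 had 2, 64 had 1 and 33 had none. At E10.5, 198 of 298 other cells had none, 93 had 1 and 7 had 2. Of the Chga-high cells 38 of 42 had none and 4 had 1. By reads thinned to 40000 per cell, which also count background, 53 of the 313 cells had all 4 and 15 none, 153 of the 298 E10.5 cells had none, 21 had 2 and 1 had 3, and 20 of 42 Chga-high cells had none and 22 had 1. By molecules, the cells with none among the other E12.5 cells made up 6.33% to 20% per plate.

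**Figure D4:**
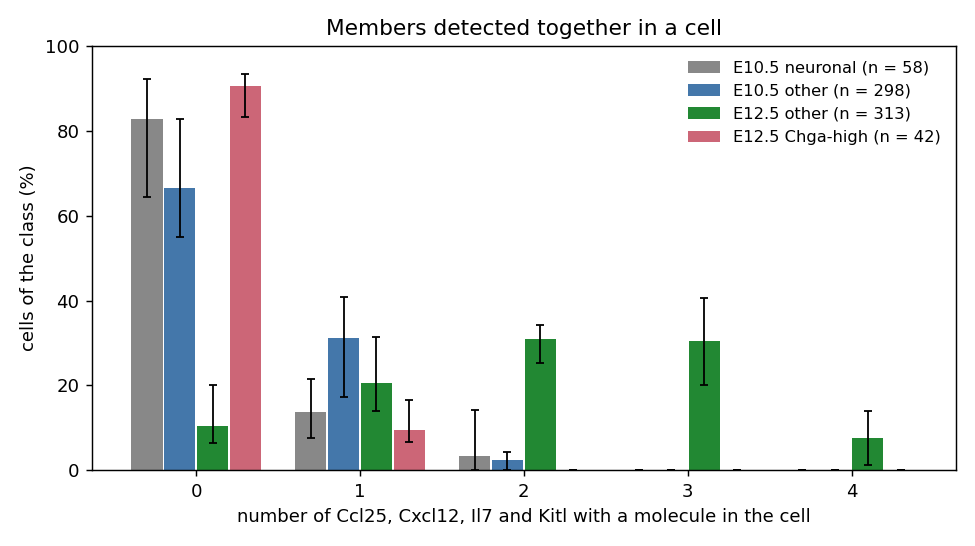
Share of cells (y axis, percent of the class) by the number of Ccl25, Cxcl12, Il7 and Kitl with a molecule in 1 run (x axis), with bars over all cells of the class and whiskers from the lowest to the highest plate. Other E12.5 cells centre on 2 and 3 genes and the 3 other classes on 0.

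Pairs of these 4 genes were counted in the same cell and set against the number that their shares on the plate give, as a description without a test. With each cell thinned to 40000 reads, Ccl25 and Cxcl12 were both read in 206 cells where 194 were expected (ratio 1.06, SD over plates 0.029). Ratios of the 6 pairs ran from 1.04 for Ccl25 and Il7 to 1.19 for Il7 and Kitl. They were above 1 on 4 of 4 plates for 4 pairs and on 3 of 4 plates for Ccl25 with Il7 and Cxcl12 with Il7. By molecules of 1 run, without thinning, they lay between 1.09 and 1.25, the lowest being Ccl25 with Il7, and by all reads between 1.01 and 1.12. Ccl25 met Kitl in 56 cells against 44.9 expected, and Cxcl12 met Kitl in 40 against 32.0. The pair of Il7 and Kitl gave 35 against 30.9, with 2 of 4 plates above 1. Ccl21a shared a cell with Ccl25 in 12 of the 20 other cells with Ccl21a molecules. That is a lower share than the 246 of all 313 other cells (78.6%) with a Ccl25 molecule. In the Chga-high class the 2 genes shared 3 of 42 cells. No expected number was counted for this pair.

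**Figure D5:**
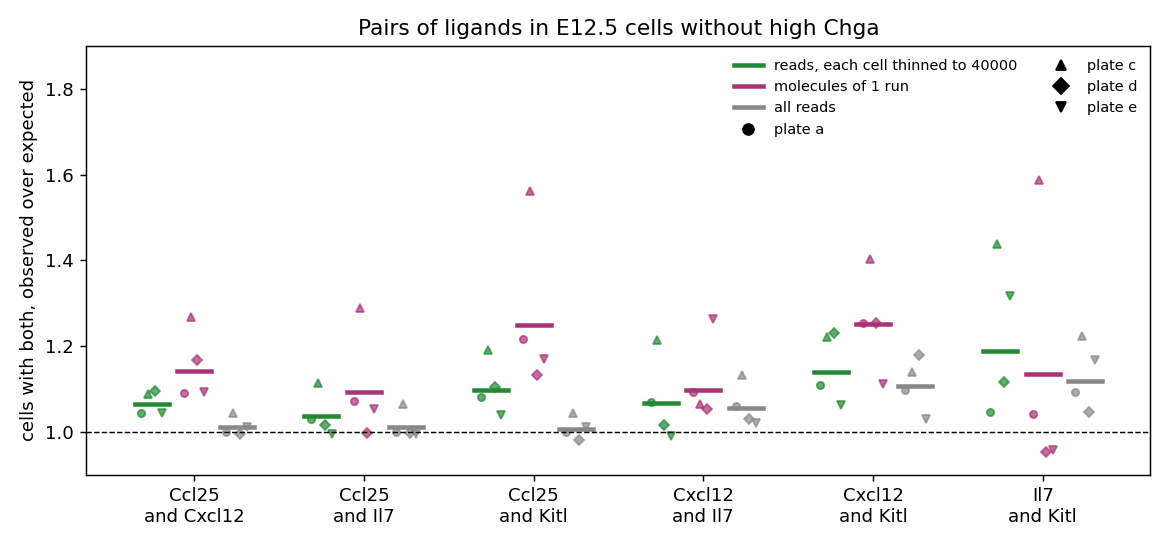
Cells with both genes of a pair over the number expected from their shares on the same plate (y axis) in E12.5 cells without high Chga, with 1 point per plate and a bar for the 4 plates together, by 3 measures. Most points lie between 1 and 1.3, and the dashed line marks a ratio of 1.

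Over these 313 cells, Spearman correlations of log2(CPM + 1) within a plate were averaged over the 4 plates, as a description in which cells of a plate share a library and differ in depth. Ccl25 and Cxcl12 had 0.34 (0.27 to 0.46 per plate), the highest among the 6 pairs, and Il7 and Kitl had 0.11 (-0.03 to 0.22), the lowest. The members' correlation with the reads of a cell averaged 0.07 to 0.10, and on single plates ran from -0.13 for Il7 to 0.36 for Cxcl12. Among 3464 genes read in at least 25% of the cells, those most like Ccl25 were Krt18 (0.65), Psmb11 (0.64), Ctsl (0.52), Prss16 (0.51) and Krt8 (0.51), keratins of simple epithelium and genes of the thymic cortex. For Foxn1 itself the value with Ccl25 was 0.23.

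Those most like Cxcl12 were Ccl25 (0.34), Krt18 (0.34), Calcoco1 (0.33), Fn1 (0.32) and Psmb11 (0.32). For Kitl they were Bnip3l (0.26), Ndrg3 (0.25), Ufsp1 (0.25), Krt18 (0.23) and Ccl25 (0.23), and for Il7 Ppil4 (0.25), Acpp (0.23), Papss1 (0.22), Farp1 (0.21) and Hmga2 (0.21). At such values in sparse counts the order of these genes carries little weight.

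The related genes were few in number. Of 32 other chemokine ligands 3 were tested between the stages without the Chga-high and neuronal cells, and 1 passed, beside 3.38% of all genes higher: Cxcl1, a ligand for neutrophils, which entered the test only through the E12.5 cells, with 15.2 CPM ± 9.02 (SD, n = 4) in other E12.5 cells, molecules in 7 of 313 cells and no read at E10.5. Cxcl1 and the membrane-anchored chemokine gene Cx3cl1, at 8.42 CPM ± 6.13 in other E12.5 cells, were without a read in Chga-high cells. Their molecules were found in 7 and 18 of 313 other cells, and 0 of 42 allows a share of up to 7.14%, so a lower share in Chga-high cells was not detectable with 42 cells. Of 10 receptor genes (Ccr9, Ccr7, Cxcr4, Ackr3, Ackr4, Kit, Il7r, Il2rg, Flt3, Crlf2) 2 were tested over all cells, and 1 fell, beside 2.44% of all genes lower. This was Kit, from 4.28 to 0.08 CPM (edgeR adjusted p = 0.040), which entered the test only through the E10.5 plates, where it was high. Ccr9, Ccr7 and Cxcr4 had at most 8 reads in any class. The median log2 fold change of the 3 ligands was 1.80 without the Chga-high and neuronal cells. That of the 2 receptor genes was -1.87 over all cells, but the 2 went in opposite directions, with Kit at -5.62, so it describes no common fall.

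Of 10 other lymphoid support factors 7 were tested between the stages without the Chga-high and neuronal cells and 4 passed as higher (median of the 7, 6.66), beside 3.38% of all genes: Il15, Dll4, Icam1 and Vcam1. All 4 entered the test only through the E12.5 cells, Il15 and Dll4 having no read at E10.5 and Icam1 and Vcam1 2 reads each in other E10.5 cells. Dll4, the NOTCH1 ligand that commits progenitors to the T cell lineage, had molecules in 41 of 313 other E12.5 cells at 9.79 CPM ± 7.63 and no read at E10.5 or in Chga-high cells. Icam1, an adhesion molecule, stood at 56.3 CPM ± 33.7 in the other E12.5 cells and 0.05 CPM ± 0.05 in the other E10.5 cells (log2 fold change 9.89, SE 0.85, edgeR adjusted p = 5.8e-05). In Chga-high cells the same 4 genes were tested and passed as lower on summed reads, beside 6.47% of all genes, but all 4 entered through the other cells, Il15, Dll4 and Vcam1 having no read in Chga-high cells. Molecules of Il15 were found in 26 of 313 other cells and of Vcam1 in 10 of 313, and for Vcam1 a lower share was not detectable with 42 cells. Icam1 stood at 0.73 CPM ± 0.86 in Chga-high cells (edgeR adjusted p = 0.022). All 6 genes of a FOXN1 and cortical list (Foxn1, Psmb11, Prss16, Cd83, Ctsl, Ly75) rose between the stages, beside 3.38% of all genes (median 8.37), and were lower in Chga-high cells, beside 6.47% (median -7.80, or -7.51 with Ly75, at 0 there, at its bound). Foxn1, Psmb11, Prss16 and Cd83 entered the test of the stages only through the E12.5 cells, and Foxn1, Psmb11, Cd83 and Ly75 that of the Chga-high cells only through the other cells, so these counts and medians are a description of the genes tested. Psmb11 had the largest change of the list between the stages, from 0.58 CPM ± 0.79 to 935 CPM ± 205.

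Markers of other cells were summed per plate. The thymic epithelial list of 7 genes came to 4601 to 5208 CPM in other E12.5 cells, 493 to 740 CPM in Chga-high cells and 252 to 442 CPM in other E10.5 cells. The mesenchymal list of 8 genes came to 5.18 to 30.8 CPM in other E12.5 cells, with 7 of 8 read and Prrx1 at 0, 32.5 to 105 CPM in Chga-high cells, with Col3a1 and Prrx1 at 0, and 142 to 230 CPM in other E10.5 cells, with Col3a1 at 0. Of 6 endothelial genes 3 were read in other cells of each stage, at no more than 26.1 CPM, with Cdh5, Cldn5 and Emcn at 0, and the erythroid list of 5 came to at most 1.17 CPM in every class. The haematopoietic list of 6 was at most 0.50 CPM outside the Chga-high class, where 1 well on plate a brought it to 353 CPM. Their part in the levels of Cxcl12, which mesenchyme also makes, was not tested.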

How the data were processed

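Single wild-type EPCAM+PLET1+ cells at E10.5 and E12.5 were sequenced from BD Precise WTA plates on a MiSeq. The authors ran the BD Precise WTA Analysis Pipeline 2.0 (STAR, GRCm38.p6, gencode.vM18, counting by HTSeq union rules, per the file headers and methods) and deposited raw read counts per gene and well, without normalization, and counts of molecules per run after its index corrections. The submitters' processing notes name GRCm38.p5. Each plate in the table of read counts equalled the sum of 2 of its runs. The 19 deposited samples are runs, so plates, not runs, were the replicates. No columns of other samples were left over.

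Cells with 40000 to 400000 protein-coding reads, 500 to 5000 genes and at most 50% mitochondrial reads were kept. Cells were sorted singly and doublets were not called, so wells with more than 1 cell may remain. The well with leukocyte genes described below was kept in the Chga-high class. Reads were summed per plate and class and tested with edgeR 4.0.16 (TMM, filterByExpr, robust quasi-likelihood fit, with limma 3.58.1, R 4.3.3, Benjamini-Hochberg adjustment over all genes tested, threshold 0.05). In simulated data with 200 genes changed, 39.2% of the changed genes tested were recovered between the stages over all cells. The share was 35.9% without the Chga-high and neuronal cells, 5.82% for Chga-high cells and 11.9% for neuronal cells. DESeq2 1.42.0, RLE size factors, no filter, a replicate block, each plate left out, molecules added over 2 runs, every well, all genes as library, and other limits of Chga and neuronal genes were alternatives. Standard errors were the fold change divided by the root of F. Shares and co-expression were described per plate, without a test, in Python 3.11.15. Cells were thinned to 40000 reads or 1000 molecules, the latter leaving out shallower cells. Plate b at E12.5, sequenced in 1 run and not in the table, was added after seeing the data.

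Named were the 8 members, from each related list the up to 5 genes with the largest change past the threshold, and the 5 genes most like each member read in at least 25% of cells. The members and lists were chosen with earlier results of these data known. Coordinates are from GENCODE on GRCm38. Same-lettered plates of the 2 stages had residual correlations across genes of 0.06, -0.02 and 0.02 (a, c, d), and a shared letter was not taken as a pair. Classes compared within a stage were sums from the same plate library, and the block by plate pairs them.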

Additional observations from a re-analysis of the deposited data

Results flagged for a closer look

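Among the levels of the 8 genes on 4 plates per class, 4 values stood apart from the others of their class by the Dixon criterion, which chance gives in about 1 in 20 groups. Kitl reached 61.5 CPM on plate a in other E12.5 cells, against 22.9 to 27.9 CPM on the other 3 plates. Ccl21a reached 12.53 CPM on plate d in other E12.5 cells, where a single cell held most of the reads. In E10.5 neuronal cells, plate b gave 0.41 CPM of Ccl21a and 0.82 CPM of Cxcl14, from 1 and 2 reads, with 0 on the other plates.

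The fifth E12.5 plate (b), known from its only run and not in the table of read counts, showed the same genes above their level at E10.5. Its 75 cells without high Chga held 2210 CPM of Ccl25, 466 CPM of Cxcl12, 197 CPM of Il7 and 44.3 CPM of Kitl, and its 12 Chga-high cells 240 CPM of Ccl21a. Ccl25 molecules were found in 52 of 75 cells (69.3%, exact interval 57.6% to 79.5%) and Ccl21a molecules in 10 of 12 Chga-high cells (83.3%, 51.6% to 97.9%), at the depth of 1 run. The Ccl25 level was below that of each of the other 4 plates.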

How the results depend on the processing

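All called changes of the members kept their direction under each alternative in which they were tested. The plate letter as a replicate block joins plates a, c and d across the stages although the letters are only names. E10.5 plate b and E12.5 plate e have no partner and were left out of this fit. It thus differs from the main fit in the plates used as well as in the block. With it, 4 of the 8 genes passed over all cells and 2 instead of 4 without the Chga-high and neuronal cells. Cxcl12 was lost in both (adjusted p = 0.12 and 0.11, log2 fold change 1.11 and 1.16) and Kitl in the second (0.053). Between Chga-high and other cells 4 instead of 5 passed with the block, Kitl being lost (0.11), and without 1 plate 3 to 4. Il7 there had an adjusted p of 0.051 with every well included. With molecules added over 2 runs in place of reads the rise over all cells was 4.23 for Kitl and 4.82 for Il7, against 6.80 and 7.24 by reads. Over all cells Ccl25 had 8.53 with the block and 8.55 without E10.5 plate b, against 7.93, and Ccl21a 6.70 with the block and 6.47 without E10.5 plate d, against 5.80. Between neuronal and other cells edgeR called 0 and DESeq2 1. The counts over all genes were 718 and 593 for the stages (215 and 137 with the block, 1638 and 1485 by DESeq2), 815 for the Chga-high cells (284 with the block, 330 without a filter, 104 to 139 without 1 plate, 1603 by DESeq2, 543 by molecules), and 74 for the neuronal cells (45 with the block, 835 by DESeq2, 124 by molecules, 1 to 55 without 1 plate, the lowest without plate c). Of the 543 by molecules 274 were higher, against 178 of 815. Between the stages without the Chga-high and neuronal cells, the log2 fold change of Cxcl14, never called, turned to -0.049 without E10.5 plate a and -0.12 without E12.5 plate e (range without 1 plate -0.12 to 1.03). Over all cells it stayed above 0, from 0.020 to 1.93 over the alternatives. In Chga-high cells the log2 difference of Cxcl14 turned to 0.063 with RLE size factors, 0.062 by DESeq2, 0.054 without plate a and 0.012 without plate c (range without 1 plate -0.47 to 0.054). In neuronal cells Ccl25 turned to 0.078 without plate a (range without 1 plate -1.97 to 0.078) and 0.19 with at least 2 neuronal genes, and Cxcl12 to 0.41 with the latter. The causes were not tested.

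Shares of cells depended on the measure, since thinning and molecules lower detection by construction. In other E12.5 cells the mean share over plates by all reads, by reads thinned to 40000, by molecules and by molecules thinned to 1000 was 97.4%, 88.4%, 78.3% and 67.3% for Ccl25, 75.4%, 69.4%, 55.5% and 26.8% for Cxcl12, 75.3%, 65.9%, 52.2% and 28.7% for Il7, 39.6%, 26.8%, 18.2% and 5.87% for Kitl and 12%, 8.6%, 5.67% and 2.25% for Cxcl14. Ratios of pairs by molecules and by all reads were 1.14 and 1.01 for Ccl25 with Cxcl12, 1.25 and 1.01 for Ccl25 with Kitl, 1.09 and 1.01 for Ccl25 with Il7, and 1.25 and 1.11 for Cxcl12 with Kitl. At a depth of 1305 to 5175 molecules per cell, cells with few transcripts of a gene can be missed.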

Other observations

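In the Chga-high class 1 well on plate a held 311 CPM of Ptprc, 259 CPM of Fcer1g and 1338 CPM of Tyrobp, genes of leukocytes, together with 12593 CPM of Chga. All Ccl3, Ccl4, Il2rg and Il7r reads of the 42 Chga-high cells came from this well, with 343, 640, 371 and 131 CPM. It had 367021 protein-coding reads, against a median of 144085 in the class. Its Ccl21a level of 221 CPM was within the range of the class.

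In the other E12.5 cells the 6 neuronal genes did not go together. Stmn2 molecules were found in 237 of 313 cells and Nefm molecules in 166, whereas Tubb3 molecules were found in 1 and Elavl3 molecules in 0. In Chga-high cells Stmn2 molecules were found in 2 of 42 and Nefm in 0.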
